A study of Rattus norvegicus with 4 samples.

Results

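Genes of the vessel wall, and beta-globin as a gene of red cells, were followed through the skin of the rat footpad during a course of irradiation that models radiation dermatitis. The 7 genes, Vwf, Pecam1, Cdh5, Kdr, Eng, Cav1 and Hbb, were taken by symbol from the 18957 genes and UniGene-type entries of the deposited tables, and each symbol had 1 row. In the libraries of days 0, 3, 6 and 9, counts were listed for 6, 6, 6 and 6 of them. Skin of the hindlimb footpad came from the outbred Sprague Dawley stock and was collected on day 0, before any irradiation by the protocol, and on days 3, 6 and 9 of a schedule of 10 Gy fractions on days 1, 2, 4 and 5 (electrons of 9 MeV, 500 cGy/min). The labels give 1 library for each day and no number, sex or pooling of animals, and no genotype beyond the stock. For day 0 the label text gives day 1 as the day of collection, and the texts of the later samples name a single irradiation day each (days 2, 4 and 5). The groups follow the sample titles.

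The inner wall of every blood vessel is a single layer of endothelial cells. Pecam1 and Cdh5 (VE-cadherin) hold these cells to one another, Kdr (VEGF receptor 2) receives the main growth signal for new vessels, and Eng (endoglin) is a co-receptor for ligands of the TGF-beta and BMP family. Cav1 builds caveolae, small pits of the plasma membrane that are common in endothelium and also abundant in fat, smooth muscle and fibroblasts. Vwf is the clotting protein that endothelial cells store and release, and that catches platelets where a vessel is damaged. Hbb encodes the beta chain of haemoglobin, the oxygen carrier of red cells, and young red cells still hold its messenger RNA. Endothelium and vessel leakage are well known to take part in the response of skin to radiation.

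Each transcript was counted in this assay through a 21-base tag that starts at a CATG site, preferably the site nearest its 3′ end. The tags below carried most of each gene's counts and are shown because the precision of every value rests on them. Capitals mark the CATG site.
Vwf: CATGctgtggcctgaccagcc
Pecam1: CATGgatgtggagtacacaga
Cdh5: CATGatcgaggtgaagaaaga
Kdr: CATGctgaagaactgtgagaa
Eng: CATGaaaccagaaaaaaaaaa
Cav1: CATGtcctataaagatttcaa
Hbb, the first tag: CATGattgtgattgtgttggg
Hbb, the second tag: CATGgtgcacctgactgatgc
The tags of Vwf, Cdh5, Eng, Cav1 and the first of Hbb stood at site 1 from the 3′ end, that of Kdr at site 2, that of Pecam1 at site 3 and the second of Hbb at site 5, per the file columns. The tag shown held 99.2% of the copies of Vwf over the 4 libraries, 98.1% for Pecam1, 96.6% for Cav1 and 96.6% for the first tag of Hbb. For Eng it held 62.0%, and it runs into 10 A, so that 7 bases after the CATG set it apart from other tags of this kind.

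The libraries held 1952921 to 1982608 gene counts, 56.9 to 60.6% of the tags seen at least 2 times. Each day had 1 library, so no replicate spread could be measured and nothing was tested across animals. A ratio sets 1 library against another, and its 95% interval holds counting error alone, which tags without molecular identifiers may understate. Levels are given as scaled CPM, gene counts divided by the TMM-scaled library total, in the usual CPM unit. They are not divided by transcript length and are compared within a gene only. A gene was called higher or lower by a rule of size: the interval had to exclude 1, the ratio had to reach 2, and the library with more of the gene had to hold 50 counts. Among all genes that reached this count, 8.54, 7.48 and 10.7% were higher and 7.88, 13.1 and 10.4% lower than on day 0 on days 3, 6 and 9. These shares are the background for the gene lists below, which hold few genes with enough counts. Some lists lie above them, such as 3 of 6 pericyte and smooth muscle genes higher on day 3. Others had none higher, such as 0 of 5 genes of TGF-beta and BMP receptor signalling on day 3. So few genes cannot set a list apart from 8.54%. No list was tested against these shares. Some features set libraries apart. All 9 skeletal muscle marker genes found were at 0 counts on day 6, against summed counts of 4557, 9554 and 8381 on days 0, 3 and 9. The Y-linked genes Eif2s3y (0, 118, 92 and 130 counts on days 0, 3, 6 and 9) and Kdm5d (0, 25, 36 and 26) were at 0 on day 0, while the row for Ddx3y had 1029, 739, 469 and 870. In whole skin, more cells of a type and more RNA in each cell cannot be told apart.

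Of the vessel wall genes, Vwf and Eng were highest in the day 6 library, Cav1 was nearly level, Pecam1 did not differ beyond counting error, and Cdh5 and Kdr were almost uncounted. Hbb was far higher on days 3 and 9 than on days 0 and 6. In the order of levels, days 0, 3 and 9 of Vwf had overlapping counting intervals and day 6 stood above all 3.

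**Figure D1:**
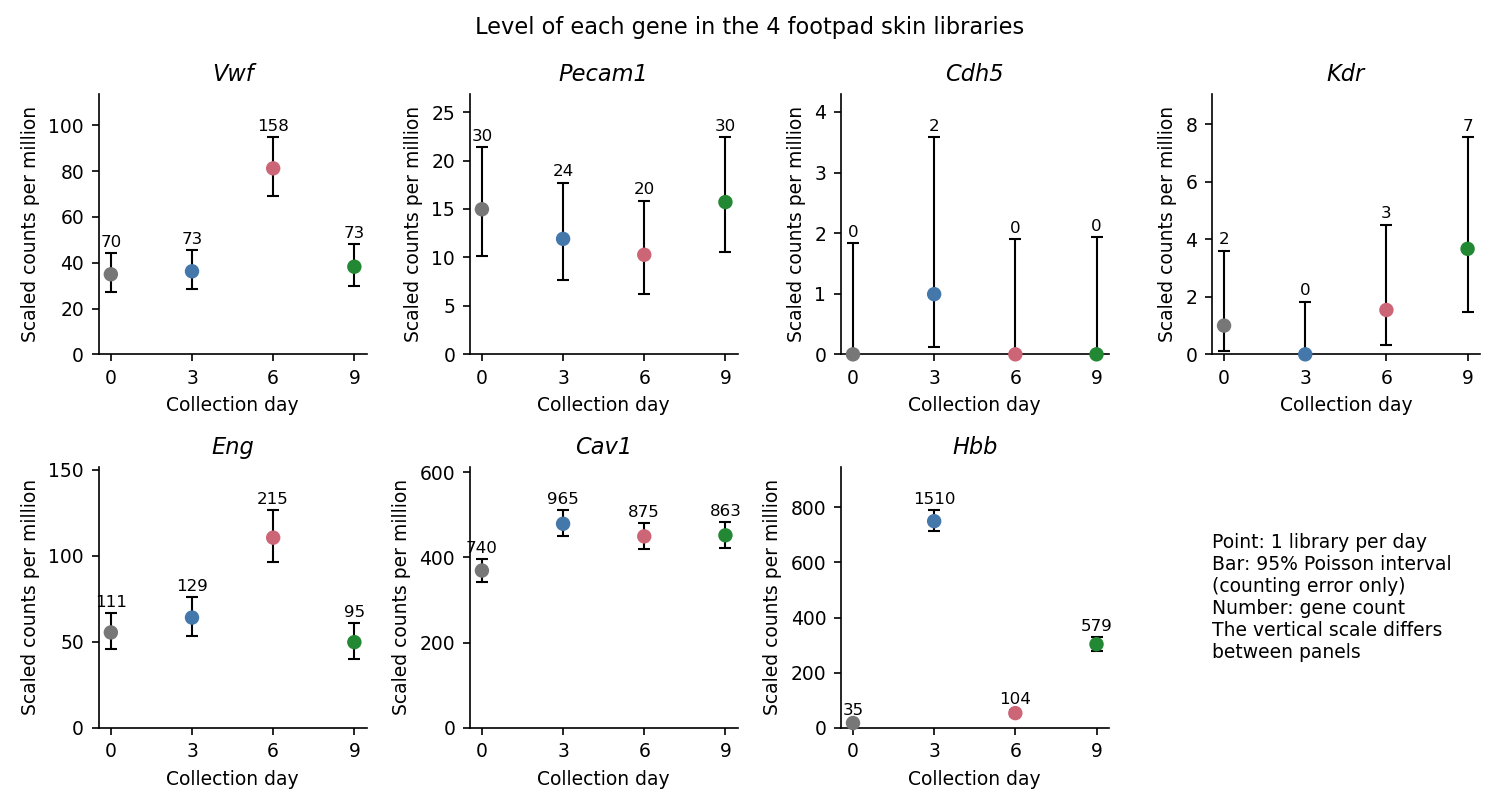
Scaled CPM (vertical axis, from 0, its range differs between panels) of the 7 genes by collection day (horizontal axis). Points are single libraries, lines are 95% Poisson intervals of the count, and the gene counts are printed above them. Vwf and Eng stand highest on day 6 (158 and 215 counts), and Hbb on days 3 and 9 (1510 and 579 counts).

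Pecam1, the adhesion receptor of endothelial cells, platelets and leukocytes, had 30, 24, 20 and 30 counts on days 0, 3, 6 and 9, or 15.0, 11.9, 10.3 and 15.7 scaled CPM. All 4 counting intervals overlapped. Day 6 over day 0 was a ratio of 0.692, that is 1.45-fold lower with an interval of 0.801 to 2.71 that includes 1. Its count stayed under the 50 that the rule needs. Cdh5, the cadherin of endothelial junctions, was listed at 0, 2, 0 and 0 counts. No ratio was taken where both libraries had 3 counts or fewer. Cdh5 is a defining gene of endothelium, and both it and Kdr were near 0 in this tissue, while Vwf, Eng and Plvap were well counted. Whether tags of Cdh5 lie among those listed under no gene was not tested.

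Kdr, the VEGF receptor, had 2, 0, 3 and 7 counts. Day 9 was 3.15-fold higher than day 0 with an interval of 0.699 to 36.2, a difference not detectable at this depth. Flt1, the other main VEGF receptor of blood vessels, had 8, 2, 3 and 4 counts and was no better measured. Of 15 genes listed for VEGF and angiopoietin signalling, 10 had a row, and no row was found for Flt4, Vegfb, Vegfd, Angpt1 or Epas1. Vegfa, the main ligand of Kdr, had 62, 31, 9 and 43 counts and was lowest on day 6, 6.39-fold (3.31 to 15.3) lower than on day 0. Its day 3 value was 1.99-fold (1.29 to 3.20) lower and lay just short of the rule. The ligands Vegfc (4, 6, 5 and 5 counts) and Pgf (8, 15, 5 and 6 counts) were too low to compare.

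Angpt2, the angiopoietin that endothelial cells release and that loosens the resting vessel, had 21, 71, 64 and 58 counts. It was 3.31-fold (2.04 to 5.76) higher on day 3, 3.09-fold (1.89 to 5.41) on day 6 and 2.86-fold (1.73 to 5.03) on day 9, each against the same day 0 library. The 3 later counts did not differ beyond their intervals. Its receptor Tek had 39, 58, 65 and 45 counts and the related receptor Tie1 had 165, 207, 237 and 149, both highest on day 6 and neither past the rule in any comparison. Hif1a, the oxygen-regulated transcription factor that drives Vegfa, had 156, 179, 156 and 358 counts and was 2.40-fold (1.99 to 2.93) higher on day 9 than on day 0. Of the genes with enough counts in this list, 1 of 5 was higher on day 3, 1 higher and 1 lower of 5 on day 6, and 2 of 4 higher on day 9.

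Eng, the endoglin co-receptor, had 111, 129, 215 and 95 counts on days 0, 3, 6 and 9, or 55.4, 64.1, 110.5 and 49.8 scaled CPM. Day 6 lay above the other 3 days, whose intervals overlapped. It was 1.99-fold (1.58 to 2.53) higher on day 6 than on day 0, just short of 2, and 1.72-fold (1.38 to 2.16) higher than on day 3. Day 9 was 2.21-fold (1.74 to 2.86) lower than day 6, which passed the rule. That call was lost with the main tag alone, where day 9 over day 6 was 0.504, and without tags ending in 10 A, where it was 0.471 and day 6 had 46 counts, under the 50 needed.

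The Eng count needs care because of its tag sequences, which are shown against the main tag with the differing base in capitals and positions counted from the first base of the CATG.
Eng, main tag: catgaaaccagaaaaaaaaaa
Eng, C8T: catgaaaTcagaaaaaaaaaa
Eng, A12T: catgaaaccagTaaaaaaaaa
The main tag had 64, 80, 132 and 65 copies on days 0, 3, 6 and 9, the C8T tag 28, 25, 35 and 9, and the A12T tag 15, 22, 38 and 16. The main, A12T and C8T tags all had most copies on day 6, C8T with 35 against 28 on day 0. C8T had its fewest on day 9. Tags 1 base from the main tag made up 36.0% of the copies listed under Eng, against 0.523% for Cav1 and 0.224% for Hbb. In the whole tag lists, such neighbours had 103.2% of the copies of the main tag for Eng and 1.07 to 1.38% for Vwf, Cav1 and Hbb. Of 5736 genes with at least 50 counts in a library, 61 (1.06%) had most of their copies in tags that end in 10 A. The share of all sequenced tags that ended in 10 A was 5.12, 2.48, 4.86 and 2.27% on days 0, 3, 6 and 9, so it was higher on days 0 and 6. The part of this in the Eng count was not tested. Without those tags, an alternative chosen after the data were seen, Eng had 15, 22, 46 and 21 counts, and day 6 over day 0 was 3.09. Day 9 over day 0 was then 1.46, against 0.899 with all tags. Most of the remaining copies belong to the A12T tag, which is itself 1 base from the main tag, so this alternative does not remove the whole family of such tags. The tag at site 2, which has no run of A, had 1, 1, 8 and 3 copies with single copies included.

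Eng works with the BMP and TGF-beta receptors. Of 15 genes listed for this signalling, 10 had a row and 5 had the 50 counts needed in each comparison with day 0. None passed the rule in any of the 6 comparisons, which with so few genes is not set apart from the share over all genes. Acvrl1 (ALK1), the endothelial receptor that pairs with Eng, had 3, 3, 2 and 0 counts, and Tgfbr2 had no row. Id1, a target gene of BMP signalling, had 228, 412, 311 and 333 counts and was 1.80-fold (1.53 to 2.12) higher on day 3 than on day 0. Smad1, a signal carrier of the same path, had 134, 90, 85 and 86 counts and was 1.49-fold (1.14 to 1.98) lower on day 3. Smad4 had 94, 96, 48 and 72 counts and Tgfb1 56, 49, 48 and 42. The median log2 ratio of the 6 genes with a mean of at least 10 counts was -0.27, -0.27 and -0.33 on days 3, 6 and 9 against day 0.

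Cav1, the coat protein of caveolae, had 740, 965, 875 and 863 counts, or 369, 479, 450 and 452 scaled CPM. The day 0 library was lowest, and the intervals of the 3 later libraries overlapped. The ratio to day 0 was 1.30-fold (1.18 to 1.43) on day 3, 1.22-fold (1.10 to 1.34) on day 6 and 1.22-fold (1.11 to 1.35) on day 9, all higher by more than counting error and all far below 2. Scaled to the summed count of the other endothelial genes, of which Plvap was the largest part, these ratios lay below 1 (0.953, 0.757 and 0.881). Fibroblast marker genes, whose cells also hold Cav1, had a summed level of 3.70, 2.89 and 2.79 times day 0 on days 3, 6 and 9. The markers differed: Col1a1 had 2001, 22815, 12663 and 12260 counts, Thy1 347, 479, 448 and 475, and Pdgfra 27, 48, 36 and 20. Of 7 with enough counts, 6, 3 and 4 were higher past the rule on days 3, 6 and 9. The part of fibroblasts in the Cav1 level was not tested.

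Cav2, the partner of Cav1 in the coat, had 176, 182, 190 and 171 counts, and its intervals overlapped on all 4 days. The cavin Ptrf (Cavin1), which shapes the pit, had 32, 22, 21 and 25 counts, and Sdpr (Cavin2) had 36, 35, 45 and 34, again with overlapping intervals. Prkcdbp (Cavin3) was listed on day 0 alone, at 5 counts. Ehd2, an ATPase at the neck of caveolae, had 104, 120, 182 and 109 counts and was highest on day 6, 1.80-fold (1.41 to 2.32) above day 0. Pacsin2, a membrane-bending protein, had 35, 66, 89 and 80 counts and was 2.60-fold (1.75 to 3.99) higher on day 6 and 2.38-fold (1.59 to 3.68) on day 9. Cav3, the muscle caveolin, chosen after its values were seen, had 25, 52, 0 and 50 counts and was at 0 on the day when the skeletal muscle genes were at 0. Of 8 caveola genes 7 had a row, and 1 of 4, 1 of 3 and 2 of 4 genes with enough counts were higher than on day 0 on days 3, 6 and 9.

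Vwf, the clotting protein of the vessel wall, had 70, 73, 158 and 73 counts, or 34.9, 36.2, 81.2 and 38.2 scaled CPM. Day 6 was the single high library, and the other 3 were alike within counting error. Day 6 was 2.31-fold (1.74 to 3.12) higher than day 0 and 2.23-fold (1.69 to 3.00) higher than day 3, and day 9 was 2.12-fold (1.60 to 2.84) lower than day 6. Day 3 and day 9 differed from day 0 by 1.04-fold (0.737 to 1.46) and 1.09-fold (0.778 to 1.54). Its main tag alone gave 70, 70, 158 and 73 copies, with no run of A and 4 copies of 1-base neighbours in all. Of the platelet and clotting genes listed, F8 (0, 0, 2 and 0 counts) and F13a1, a clotting factor also made by macrophages, had rows. F13a1 had 31, 71, 76 and 39 counts and was 2.26-fold (1.48 to 3.60) higher on day 3 and 2.50-fold (1.64 to 3.97) higher on day 6 than on day 0. No platelet-defining gene of the list, such as Pf4, Itga2b or Gp9, had a row.

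Set against all genes by the size rule, 4 of the 7 genes had the 50 counts needed in each comparison. Day 3 against day 0 gave 1 higher (Hbb), where 8.54% of 5342 tested genes were higher, 7.88% lower and 16.4% passed in either direction. Day 6 against day 0 gave 2 higher (Vwf and Hbb), where 7.48% of 5296 were higher, 13.1% lower and 20.6% passed in all. Day 9 against day 0 gave 1 higher (Hbb), where 10.7% of 5345 were higher, 10.4% lower and 21.1% passed in all. Against day 3, day 6 gave 1 higher (Vwf) and 1 lower (Hbb), where 2.88% of 5101 genes were higher, 6.74% lower and 9.63% either. Day 9 against day 6 gave 1 higher (Hbb) and 2 lower (Vwf and Eng), where 10.0% of 5127 genes were higher, 4.37% lower and 14.4% either. Day 9 against day 3 gave 1 lower (Hbb), where 6.41% of 5165 genes were higher, 4.59% lower and 11.0% passed in all. With 4 genes, a share cannot be set apart from these backgrounds, and the comparisons share libraries. Each day 0 ratio uses the same day 0 library, and 3 of the 6 comparisons use day 6.

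The 6 vessel genes were set beside 32 other endothelial genes, of which 27 had a row and 12 reached 50 counts in a library. Their summed count was 1524, 2086, 2380 and 2017 on days 0, 3, 6 and 9, and the scaled sum was 1.36, 1.61 and 1.39 times day 0 on days 3, 6 and 9. Plvap, the diaphragm protein of leaky capillaries, made up the largest part, and without it the sum was 1.22, 1.43 and 1.33 times day 0. Both sums were lowest on day 0 and highest on day 6. The median log2 ratio of the 18 genes with a mean of at least 10 counts was 0.30, 0.51 and 0.44, against -0.01, 0.03 and 0.00 for all 9876 such genes. Of these 18 endothelial genes, 7 (38.9%) were highest on day 6 and 7 on day 9, against 23.8% and 24.7% of all genes. On day 0, 2 (11.1%) were highest, against 30.3% of all genes.

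Plvap had 365, 659, 770 and 543 counts and was 2.17-fold (1.92 to 2.47) higher on day 6 than on day 0. Mmrn2, a matrix protein that coats endothelium, had 149, 176, 292 and 174 counts and was 2.01-fold (1.65 to 2.47) higher on day 6 than on day 0. Its other 3 libraries had overlapping intervals, as those of Vwf did. Tie1 was 1.48-fold (1.21 to 1.82) higher on day 6. Thbd, the anticoagulant thrombomodulin of the endothelial surface, had 227, 235, 283 and 353 counts and was highest on day 9, 1.63-fold (1.38 to 1.94) above day 0. Mmrn2 and Plvap were the 2 genes of the list past the rule on day 6, Sox18 was the 1 gene on day 3 (38 to 85 counts, 2.21-fold, 1.50 to 3.35) and Egfl7 the 1 gene on day 9 (49 to 105 counts, 2.24-fold, 1.59 to 3.23). Sox18, an endothelial transcription factor, and Egfl7, a secreted endothelial factor, were chosen after their values were seen. Of the 27, 10 to 12 had the count needed in each comparison, and none was lower past the rule in any of the 6. Over all genes with enough counts, 4.37 to 13.1% were lower. With so few endothelial genes, this is not set apart from that share. Notch4, also chosen after its values were seen, had 25, 14, 10 and 14 counts, too few for the rule. Scaled to the summed count of these genes in place of all genes, also chosen after the data were seen, Vwf on day 6 was 1.44 times day 0 and Eng 1.24 times, both below 2. Hbb on day 6 was then 1.88 times day 0, also below 2. Cav1 turned direction under this scaling and was 0.953, 0.757 and 0.881 times day 0 on days 3, 6 and 9. Eng turned too on day 3 (0.849). The sum used for this scaling includes Plvap, its largest part, and rose less without it. These scaled ratios therefore depend in part on Plvap, and they were not recomputed without it.

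**Figure D2:**
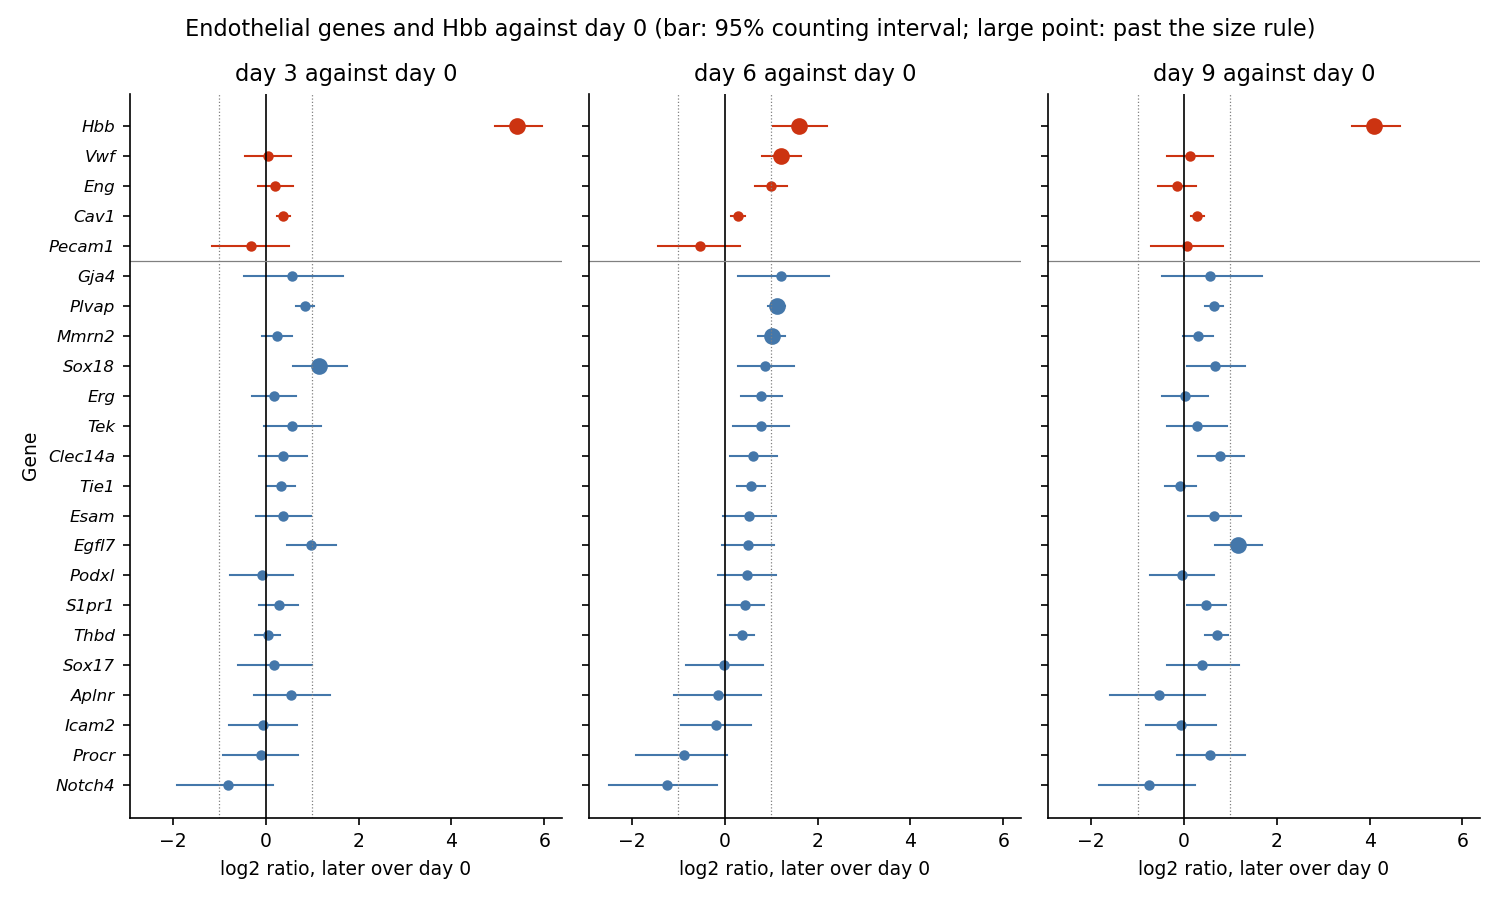
Log2 ratio of scaled counts (horizontal axis) of 5 of the 7 genes (red, above the line) and the 18 other endothelial genes with a mean of at least 10 counts (blue) on days 3, 6 and 9 against day 0. Lines are 95% counting intervals, large points passed the size rule, and dotted lines mark 2-fold. On day 6, Hbb, Vwf (2.31-fold), Plvap and Mmrn2 passed the rule, Gja4 lies beyond 2-fold with too few counts for it, and Pecam1, Procr and Notch4 lie furthest to the left.

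Of the adhesion genes that activated endothelium shows to leukocytes, Sele and Icam1 passed the rule, and both were highest on day 9. Sele (E-selectin), a mark of activated endothelium, had 66, 165, 211 and 287 counts, lowest on day 0 and highest on day 9. It was 2.48-fold (1.86 to 3.36) higher on day 3, 3.27-fold (2.49 to 4.41) on day 6 and 4.54-fold (3.48 to 6.06) on day 9 than on day 0. Selp (P-selectin), stored with Vwf in endothelial granules, had 11, 23, 30 and 45 counts, 4.15-fold (2.19 to 9.21) higher on day 9 but under the count that the rule needs. Icam1, the ligand of leukocyte integrins, had 27, 47, 51 and 96 counts and was 3.68-fold (2.41 to 5.95) higher on day 9. Icam2, present on resting endothelium, had 34, 33, 29 and 31 counts, with overlapping intervals throughout. Of 6 adhesion genes listed 5 had a row, and 1 of 1, 1 of 2 and 2 of 2 with enough counts were higher than on day 0 on days 3, 6 and 9. Vcam1, a further leukocyte ligand, had 0, 7, 4 and 6 counts. The 10 leukocyte markers had a summed count of 470, 965, 870 and 1477, of which S100a9, a neutrophil gene, had 34, 43, 34 and 891. Whether leukocytes had a part in the Icam1 count was not tested.

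The lymphatic markers with a row were also lowest on day 0, apart from Pdpn. Ccl21, the chemokine that guides cells into lymph vessels, had 335, 1378, 801 and 913 counts and was 4.09-fold (3.63 to 4.63) higher on day 3. Lyve1, a hyaluronan receptor of lymph vessels and some macrophages, had 132, 330, 381 and 171 counts and was 2.96-fold (2.43 to 3.65) higher on day 6. Pdpn, which fibroblasts and keratinocytes also make, had 32, 63, 26 and 56 counts. Of 6 lymphatic genes listed 3 had a row, and Prox1, Flt4 and Mmrn1 had none.

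Pericytes and smooth muscle, the outer cells of the vessel wall, were read through 12 genes that all had a row. Tagln, a smooth muscle actin-binding protein, had 178, 442, 401 and 342 counts and was 2.47-fold (2.07 to 2.96), 2.32-fold (1.94 to 2.78) and 2.01-fold (1.68 to 2.43) higher than on day 0 on days 3, 6 and 9. Rgs5, a pericyte gene, had 55, 136, 78 and 132 counts, and was 2.45-fold (1.79 to 3.43) higher on day 3 and 2.51-fold (1.83 to 3.52) on day 9. Acta2, smooth muscle actin, had 589, 1268, 956 and 648 counts, 2.14-fold (1.94 to 2.37) higher on day 3 than on day 0. Des, a filament protein shared with skeletal muscle, had 466, 392, 90 and 536 counts and was 5.01-fold (4.01 to 6.38) lower on day 6. In this list 3 of 6, 1 of 6 and 2 of 5 genes with enough counts were higher than on day 0 on days 3, 6 and 9, and 1 was lower, on day 6. The summed list, Des included, was 1.63, 1.18 and 1.28 times day 0, so its highest library was day 3 and not day 6. The low Des count on day 6 lowers that day's sum, and the sum was not taken without Des.

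**Figure D3:**
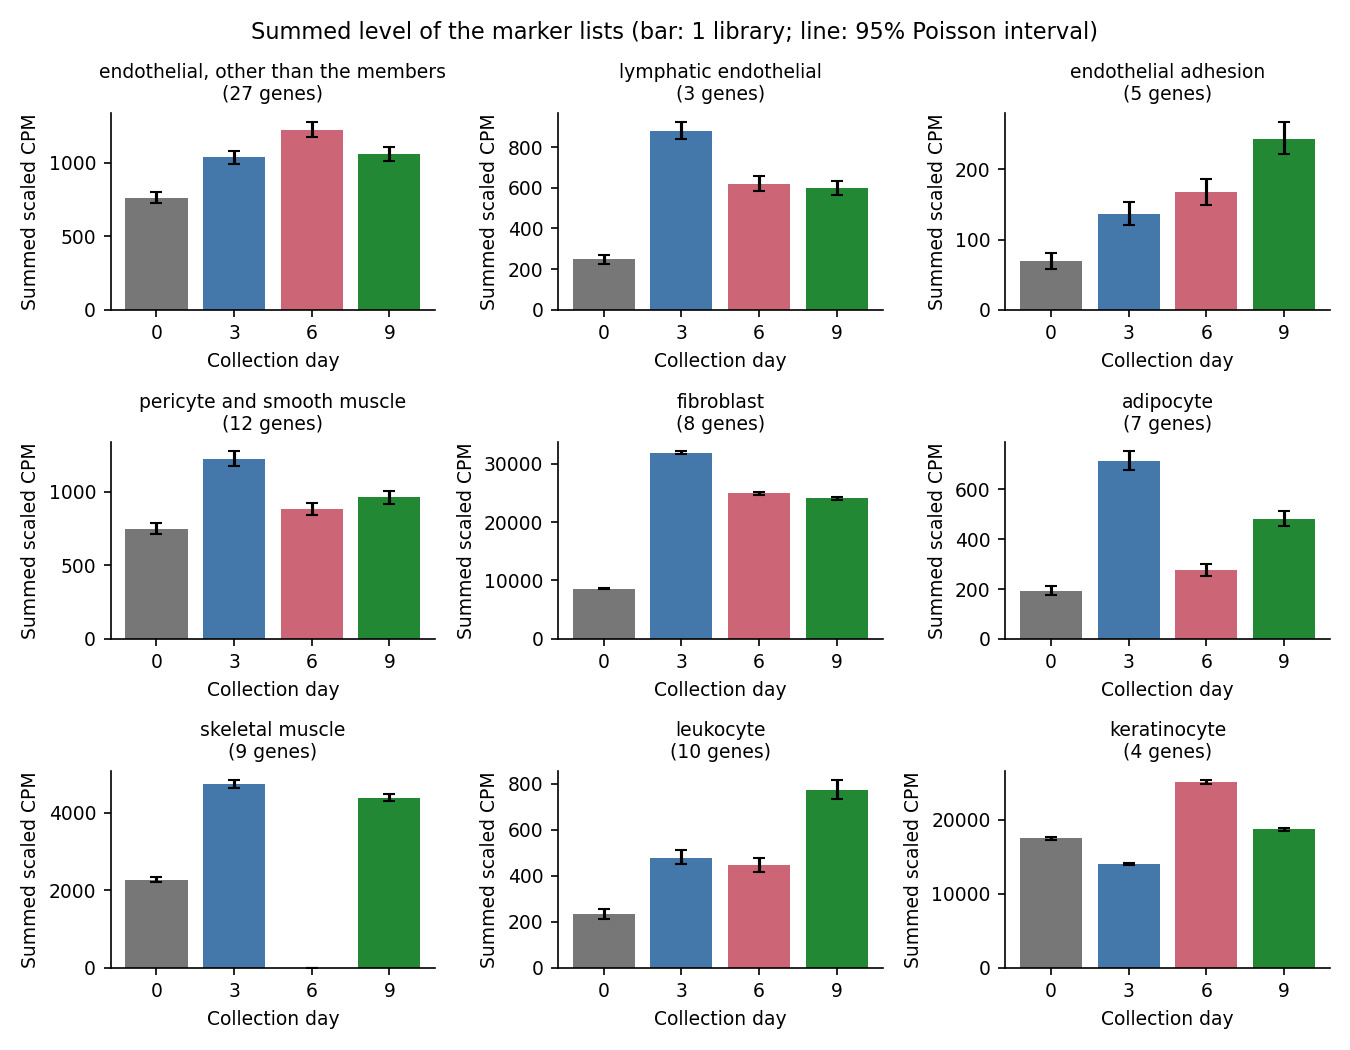
Summed scaled CPM (vertical axis, from 0, its range differs between panels) of 9 marker lists by collection day. Bars are single libraries and lines 95% Poisson intervals of the summed count. The endothelial sum is lowest on day 0 and highest on day 6. The adipocyte sum is highest on days 3 and 9, and skeletal muscle genes are at 0 on day 6.

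Hbb had 35, 1510, 104 and 579 counts, or 17.5, 750, 53.4 and 303 scaled CPM on days 0, 3, 6 and 9. No counting intervals overlapped, and the order from low to high was day 0, day 6, day 9 and day 3. Against the 35 counts of day 0, the ratio was 42.3-fold (30.7 to 61.9) on day 3 and 17.1-fold (12.3 to 25.2) on day 9. Between the irradiated days, day 6 was 14.0-fold (11.5 to 17.3) lower than day 3, day 9 was 5.65-fold (4.60 to 7.06) higher than day 6, and day 9 was 2.47-fold (2.24 to 2.73) lower than day 3. Its ratio to day 0 was smallest on day 6, at 3.03-fold (2.07 to 4.62). The second tag, at site 5, had the same order of days, with 1, 36, 5 and 29 copies when single copies are included.

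The other red cell genes gave little to set beside Hbb. Alas2, which starts haem synthesis in red cell precursors, had 0, 19, 0 and 16 counts, so it was listed on the 2 days on which Hbb was high. That is at least 6.30-fold higher on day 3 and at least 5.60-fold higher on day 9 than on day 0, with a floor of 3 counts for the library at 0, and under the count that the rule needs. The alpha-globin gene Hba2 was listed on day 9 alone, at 3 counts. Of 30 red cell symbols searched 9 had a row, and 5, 4 and 5 reached the count needed on days 3, 6 and 9. None of these passed the rule against day 0, where 16.4, 20.6 and 21.1% of all genes did. No row was found for red cell genes such as Slc4a1, Ahsp and Epb42. Genes of the list that many cells express did not follow Hbb in size: Slc25a39, a mitochondrial carrier, had 163, 136, 105 and 154 counts, Bpgm, which makes bisphosphoglycerate, 66, 62, 37 and 58, and Gypc, a membrane glycoprotein, 49, 53, 33 and 59. Tfrc, the transferrin receptor, had 98, 138, 61 and 155 and was 2.18-fold (1.61 to 3.01) lower on day 6 than on day 3.

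Because the beta-globin genes of the rat are a cluster of close copies and alpha-globin was nearly unlisted, tags listed under no gene were searched for the profile of the main Hbb tag. This search was chosen after the values were seen. It used the Euclidean distance of centred log2 copies over the 4 libraries, among the 5184 unlisted tags whose highest library held at least 30 copies. The 3 nearest are printed because one of them is nearly the main Hbb tag and another outnumbers it. Capitals mark the CATG site in tags 1 and 3, and in tag 2 the bases that differ from the main Hbb tag.
Unassigned tag 1: CATGcaggtcgctcagagtgg
Unassigned tag 2: catgattgtgattAtgAtggg
Unassigned tag 3: CATGcacgcctctctggacaa
Tag 2 differs from the main Hbb tag by G14A and T17A alone and had 2, 46, 4 and 26 copies on days 0, 3, 6 and 9. Tag 1 had 1, 84, 5 and 33 copies, and tag 3 had 88, 2228, 369 and 1053, more than the main Hbb tag in every library. All 3 had the order of days of Hbb, which is what the search selects. Tag 3 was 25.1-fold (20.4 to 31.5) higher on day 3, 4.30-fold (3.41 to 5.51) on day 6 and 12.5-fold (10.1 to 15.8) on day 9 than on day 0. No gene name is given to these tags, since no transcript sequences were used here.

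**Figure D4:**
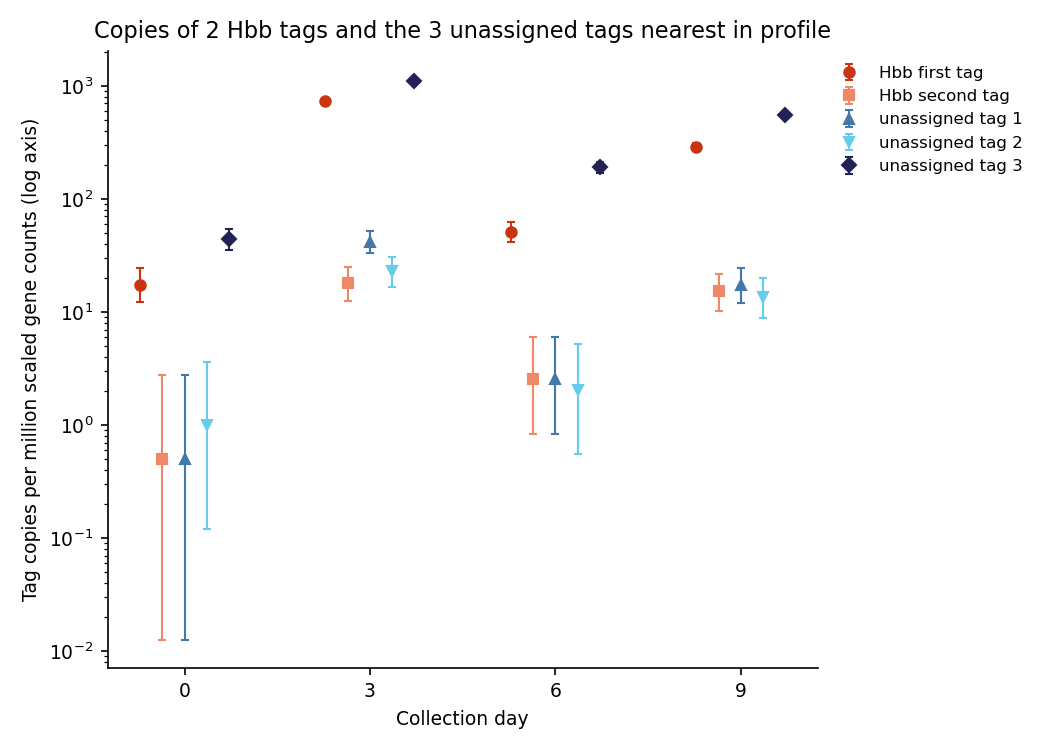
Copies of the 2 main Hbb tags and of the 3 unassigned tags as scaled CPM (vertical log axis) by collection day (horizontal axis). Points are single libraries and lines 95% Poisson intervals. The 5 tags are all higher on days 3 and 9 than on days 0 and 6.

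The sums of fat genes and of skeletal muscle genes shared the high days of Hbb, days 3 and 9. From day 0 to day 6, Hbb was 3.03-fold higher and the adipocyte sum 1.43-fold higher. Over the same step Adipoq was not higher, and the skeletal muscle sum fell from 4557 counts to 0. The 7 adipocyte genes found had a summed count of 387, 1440, 538 and 921 on days 0, 3, 6 and 9, and Adipoq alone 41, 448, 35 and 165. The adipocyte sum was thus also highest on day 3 and next on day 9. Skeletal muscle genes had their 2 highest sums on the same days and 0 on day 6. Not every muscle gene had this order. Of the 7 with a mean of at least 10 counts, 3 were highest on day 3 and 2 on day 9. The other 2, Eno3 (364, 280, 0 and 252 counts) and Myh1 (730, 537, 0 and 687), were highest on day 0. Cav1 was also lowest on day 0 and highest on day 3, within a far narrower range. Its later libraries had overlapping counting intervals, so their order was not resolved (day 9 over day 6 was 1.01, 0.914 to 1.11). Vwf and Eng did not share the course of Hbb and were at their highest on day 6. There the sums of fat and muscle genes and the level of Hbb were below those of days 3 and 9. The 4 keratinocyte genes found had a summed count of 35052, 28304, 48858 and 35702, highest on day 6 and lowest on day 3. Krt1 carried most of this sum (21013, 23380, 38510 and 29506 counts) and alone of the 4 was highest on day 6. Krt10 was highest on day 0, and Krt14 and Dsg3 on day 9. The part of keratinocytes in the Vwf and Eng levels was not tested. The part that the depth or make-up of the skin samples had in the Hbb level was not tested.

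By profile over the 4 libraries, among 4683 genes with an established symbol and at least 50 counts, the nearest to Hbb were Adipoq (distance 1.68), Retn, the fat hormone resistin (2.10; 6, 79, 2 and 32 counts), and Agr2 (2.16; 8, 58, 4 and 27 counts). The nearest to Vwf were Inhbb (0.21; 33, 37, 79 and 42 counts), Rfc4 (0.22; 45, 45, 102 and 55) and Tcf19 (0.23; 54, 55, 99 and 51). Those nearest to Eng were Epb41l3 (0.11), C1qtnf1 (0.12; 236, 303, 457 and 202 counts) and Cadm3 (0.16; 145, 180, 272 and 138). Cav1 lay nearest to Ulk2 (0.03), Capns1 (0.04; 361, 468, 427 and 433 counts) and Fhdc1 (0.04), and Pecam1 to Trafd1 (0.06), Egln3 (0.07; 288, 231, 183 and 286 counts) and Pdcl3 (0.09). Distances are on the log2 scale over 4 points that share the same libraries. None of these genes is a marker of endothelium or red cells in the lists used. Only 12 of the 27 endothelial and 5 of the 9 red cell genes found had the 50 counts needed to appear. Alas2 and Hba2 did not, so their absence here says nothing about their profiles. Cdh5 and Kdr had too few counts for a profile to be read.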

How the data were processed

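Digital gene expression tags were read from rat footpad skin, 1 library for each of days 0, 3, 6 and 9. The authors summed the copies of tags assigned to a gene into a count and left out single-copy tags, per the file headers and values. The deposited column headed TPM holds CPM, scaled by the authors to tags seen at least 2 times. The deposited tag lists hold 1 sequence a line and no number. The build was Rnor_6.0, per the submitters' processing notes, and the aligner is not given in the sources used here.

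Counts were joined by gene identifier and scaled with TMM factors (edgeR 4.0.16). Ratios used a prior count of 0.5 and exact 95% Clopper-Pearson intervals, and levels had exact Poisson intervals. A library at 0 was set to 3 counts. Neither edgeR's test nor DESeq2 (1.42.0, used for size factors) can estimate a spread from 1 library a day. The intervals and the size rule were tried on simulated Poisson counts with known ratios. These hold counting error alone, as the intervals assume, so this trial cannot speak to spread between animals.

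The 7 genes and the 14 marker lists were chosen with earlier results of these data known. Named were all 7 genes, the 4 most counted genes of a list, genes with a shared role, and the 3 nearest profiles. The lists overlap. Alternatives covered scaling, prior count, count minimum, interval bound and tags. No coordinates were used.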

Additional observations from a re-analysis of the deposited data

Results flagged for a closer look

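The 3 unassigned tags carry copies outside the gene counts. They were selected for the profile of Hbb, so that their higher level on day 3 than on day 0 follows from the search and is a description. On day 3, tag 1 had 84 copies against 1 on day 0, tag 2 had 46 against 2, and tag 3 had 2228 against 88. Tag 3 was the most abundant of the 3 and had 151.7% of the copies of the main Hbb tag on day 3, 251% on day 0, 373% on day 6 and 191% on day 9, while tag 2 had 3.13 to 5.71% of them. What transcript each belongs to was not tested.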

How the results depend on the processing

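Of 256 recomputed gene ratios, 242 stayed within the counting interval of the reported value, 14 left it and none of the called ones reversed. Part of the 256 could not move. Leaving out tags ending in 10 A changes Eng alone, and Kdr has a single tag, so its ratios with the main tag alone are repeats. Of the 14, 11 came from scaling to the other endothelial genes, and 2 from leaving out tags ending in 10 A. Leaving out a library was not possible with 1 a day, and no paired analysis was possible because no day has more than 1 library. With the authors' value plus 1, Vwf on day 6 against day 3 fell just short and 1 of the 7 genes passed in place of 2. With an interval bound of at least 2-fold, 1, 1 and 1 passed for day 6 against day 0, day 6 against day 3 and day 9 against day 6, in place of 2, 2 and 3 (Hbb alone). With no minimum count, 2 passed for day 9 against day 3, the added gene being Kdr at 7 against 0 counts. With the most abundant tag alone, Eng passed for day 6 against day 0 and no longer for day 9 against day 6, which was also lost without tags ending in 10 A (chosen after the data were seen), at ratios of 0.504 and 0.471 against 0.452. Over all genes, the count past the rule for day 3, 6 and 9 against day 0, day 6 against day 3, day 9 against day 6 and day 9 against day 3 was 877, 1090, 1129, 491, 739 and 568. It was 1918, 2362, 2315, 1388, 1807 and 1441 with at least 10 counts, 2229, 2722, 2632, 1652, 2098 and 1697 with no minimum, and 336, 539, 474, 219, 321 and 197 with the bound at 2-fold. The share of called genes that were higher was 52.0% on day 3 against day 0 and 63.2% with the authors' value, 29.9 and 16.8% for day 6 against day 3, and 58.3 and 44.3% for day 9 against day 3. In the last 2, the median log2 ratio of all genes was -0.11 and -0.11 with the authors' value, against 0.02 and -0.01. The authors' value is scaled to tags seen at least 2 times, and the main setting to TMM-scaled gene totals. Apart from the prior count and the added 1, their ratios thus differ by a fixed factor in each comparison. Beyond this scaling and fewer or more genes tested, the cause was not tested. Pecam1, Cdh5 and Kdr did not reach 50 counts in any library, and the cause was not tested.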
